A study of Mus musculus with 8 samples.

Results

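The Hippo pathway was examined through 10 genes in mouse blastocysts: the coactivators Yap1 and Wwtr1, the transcription factors Tead1 and Tead4, the kinases Lats1 and Lats2, the junction proteins Amot, Amotl2 and Nf2, and the target gene Ctgf. They were taken by symbol from a table of 19688 genes, and all 10 were listed. Levels are in FPKM, which scales fragments by transcript length and by library size, so that genes can be compared per length. The 8 libraries came from fresh in vitro blastocysts (2 libraries, titled IVF), thawed blastocysts after vitrification, an ice-free way of freezing (3 libraries), and blastocysts vitrified and thawed in media containing 1e-10 M melatonin, an antioxidant hormone (3 libraries). No strain, embryo age or transgene is named in the labels. Nor do they say whether a library is 1 embryo, a pool or a separate culture, so that p-values measure the spread between these libraries, which may be technical.

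The Hippo pathway is a kinase cascade that reads cell contact and polarity. LATS kinases phosphorylate the coactivators YAP and TAZ, which then stay in the cytoplasm. In outer cells of the early embryo, which have an apical domain, the pathway is off, and nuclear YAP with TEAD4 turns on trophectoderm genes such as Cdx2 and Gata3. In inner cells, angiomotins and the scaffold NF2, the product of Nf2, activate LATS at cell contacts, and YAP is kept out of the nucleus. The activity of the pathway lies in phosphorylation and location of proteins, which RNA levels do not show.

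The libraries held all 3 blastocyst lineages. All 14 trophectoderm markers and all 12 primitive endoderm markers reached 1 FPKM in at least 2 libraries, as did 11 of 12 epiblast markers. The summed epiblast markers were lower in both fresh libraries (317.8 to 372.2 FPKM) than in vitrified (387.5 to 540.9) and melatonin libraries (411.8 to 510.0). The epiblast factor Nanog rose by 2.21 ± 0.33 on the log2 scale in vitrified against fresh blastocysts (limma adjusted p = 0.0394). Pou5f1, Klf2, Prdm14, Tdgf1 and Gdf3 also lay wholly above fresh there, without passing. Zfp42, the most abundant epiblast marker, lay wholly below (-0.33 ± 0.14, limma adjusted p = 0.240), and the other epiblast markers overlapped. Summed trophectoderm and primitive endoderm markers overlapped between fresh and both other groups. Of the primitive endoderm markers, Gata6 (1.11) and Sox17 (0.90) lay wholly above fresh in vitrified libraries without passing, and the others overlapped. The summed primitive endoderm markers were lower in melatonin (135.9 to 179.6 FPKM) than in vitrified libraries (187.7 to 256.8). Gata6, Gata4, Pdgfra, Foxq1 and Lamb1 lay wholly below vitrified there, none of them passing, and the others overlapped. The trophectoderm sum is led by Fabp3 (at least 5821 FPKM) and Krt18 (at least 4947). Among its single markers, Cldn4 fell in vitrified against fresh blastocysts (-1.23 ± 0.18, limma adjusted p = 0.0394). Elf5 (-1.09) and Tfap2a (-0.68) lay wholly below fresh and Gata3 (0.93) wholly above, none of them passing, and the others overlapped. Cdx2, which defines trophectoderm, lay between 18.6 and 27.0 FPKM. Of 10 cumulus cell markers 2 were in the table and summed to at most 0.344 FPKM, and those of sperm and blood summed to at most 2.16. Since the libraries mix lineages, fewer cells of a type and less RNA per cell cannot be told apart. Fresh replicate 1 stood apart, with 11.3% of its summed FPKM from mitochondrial transcripts against 4.24% to 6.56% in the other 7 libraries. Vitrified replicates 2 and 3 were at 0 FPKM for the summed Y-linked transcripts, which lay between 20.9 and 36.8 elsewhere, and had 10.5 and 8.14 FPKM of Xist against at most 0.963. Depth was estimated at between 5821000 fragments, in fresh replicate 2, and 10006000, in fresh replicate 1. A 2 kb transcript at 1 FPKM then stands for 11.6 to 20.0 fragments.

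Tead4 was the most abundant of the 10 genes, at a mean of 23.2 FPKM over the 8 libraries, followed by Wwtr1 at 11.1 and Amotl2 at 5.28. Nf2 (2.52), Lats2 (2.24), Ctgf (1.93) and Yap1 (1.68) came next, and Amot (0.977), Tead1 (0.700) and Lats1 (0.480) were lowest. Tead4 exceeded Wwtr1 in 8 of 8 libraries and their ranges did not overlap. Wwtr1 also exceeded Amotl2 in 8 of 8, and Yap1 exceeded Amot in 8 of 8, although their ranges over all libraries overlapped. Every other pair of neighbours in this order changed place in at least 2 libraries, and their ranges overlapped. Of the 10 genes, 8 reached 1 FPKM in at least 2 libraries and were tested; Tead1 did so in 1 library and Lats1 in 0, and both are described without a test.

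**Figure D1:**
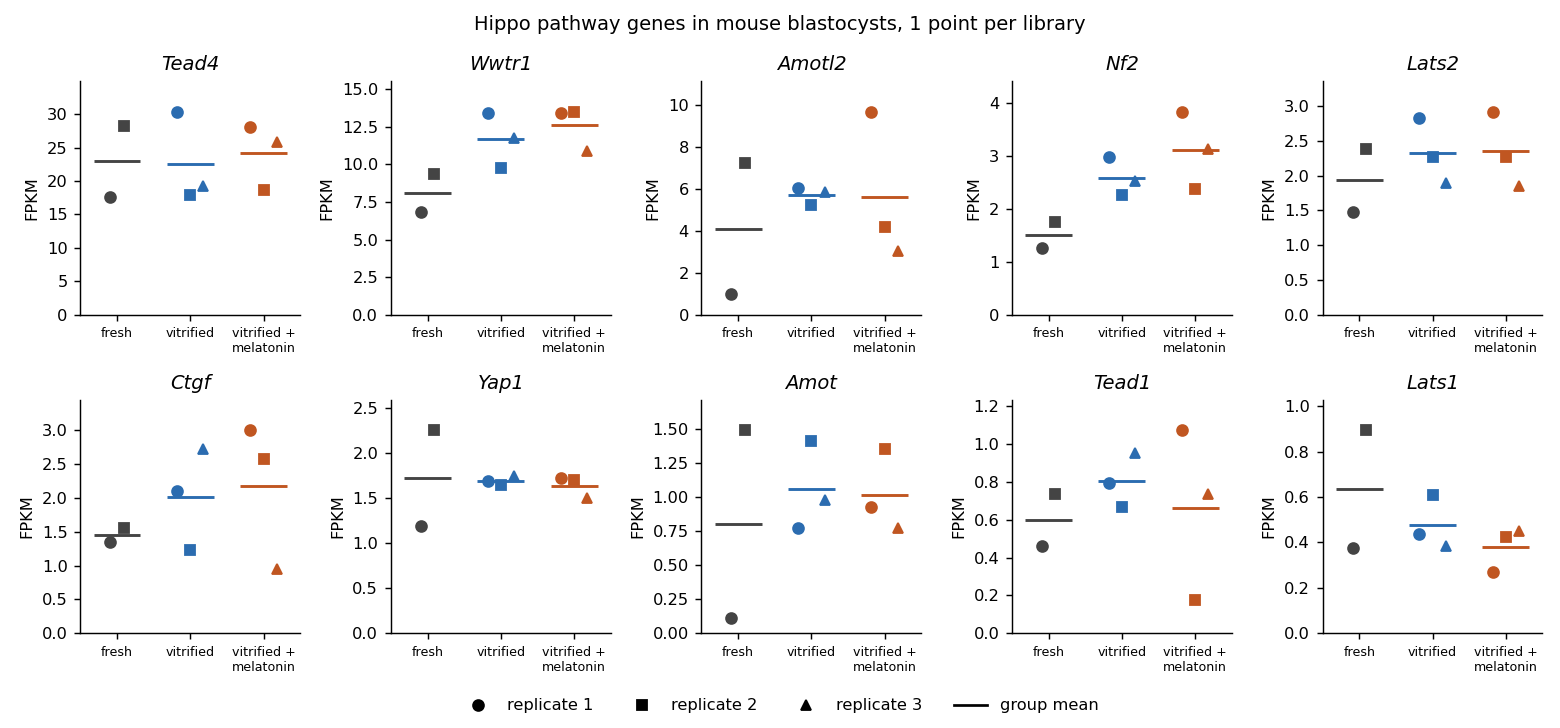
FPKM of the 10 Hippo pathway genes, ordered by mean level, with 1 point per library and a line at the mean of each group (2 fresh, 3 vitrified, 3 melatonin libraries); each panel has its own axis from 0. Wwtr1 and Nf2 are lower in both fresh libraries than in all others, while fresh replicate 1 is the lowest point for Amot and Amotl2.

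None of the 8 tested genes passed the test in any comparison. The test was limma on log2(FPKM + 1) over 10755 genes, with a Benjamini-Hochberg adjusted p below 0.05 as threshold. Between vitrified and fresh blastocysts 0 of 8 passed, where 0.865% of all tested genes did, and their adjusted p ran from 0.238 to 0.983. At an unadjusted p below 0.05 there was 1 of 8, Wwtr1, against 20.2% of all genes. Between melatonin and vitrified blastocysts 0 of 8 passed (0.139% of all genes, adjusted p from 0.707 to 0.993), and 0 of 8 had an unadjusted p below 0.05, against 14.8%. Between melatonin and fresh blastocysts 0 of 8 passed (0% of all genes, adjusted p from 0.182 to 0.979), and 2 of 8, Nf2 and Wwtr1, had an unadjusted p below 0.05, against 18.5%. The 95% intervals of single genes, not adjusted for the number of genes, reached between 0.42 and 1.25 to each side on the log2 scale. The intervals of Wwtr1 in both comparisons with fresh and of Nf2 in melatonin against fresh excluded 0, yet neither gene passed the adjusted test.

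The median difference in mean log2(FPKM + 1) of the 8 genes was 0.28 for vitrified against fresh, where all tested genes had a median of 0.14. It was 0.02 for melatonin against vitrified (all genes -0.05) and 0.29 for melatonin against fresh (all genes 0.09). In both comparisons with fresh blastocysts, 7 of 8 genes lay above 0, beside 63.5% and 59.2% of all tested genes, and in melatonin against vitrified 5 of 8 did, beside 43.8%. Both comparisons with fresh blastocysts share the fresh libraries. Their medians rested on fresh replicate 1, which was the lowest library for 7 of the 8 genes and for 34.4% of all tested genes; the part of its higher mitochondrial share was not tested. Without it they were -0.15 for vitrified against fresh and -0.13 for melatonin against fresh, and without fresh replicate 2 the second was 0.61. The median for vitrified against fresh was 0.0045 with quantile normalization.

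**Figure D2:**
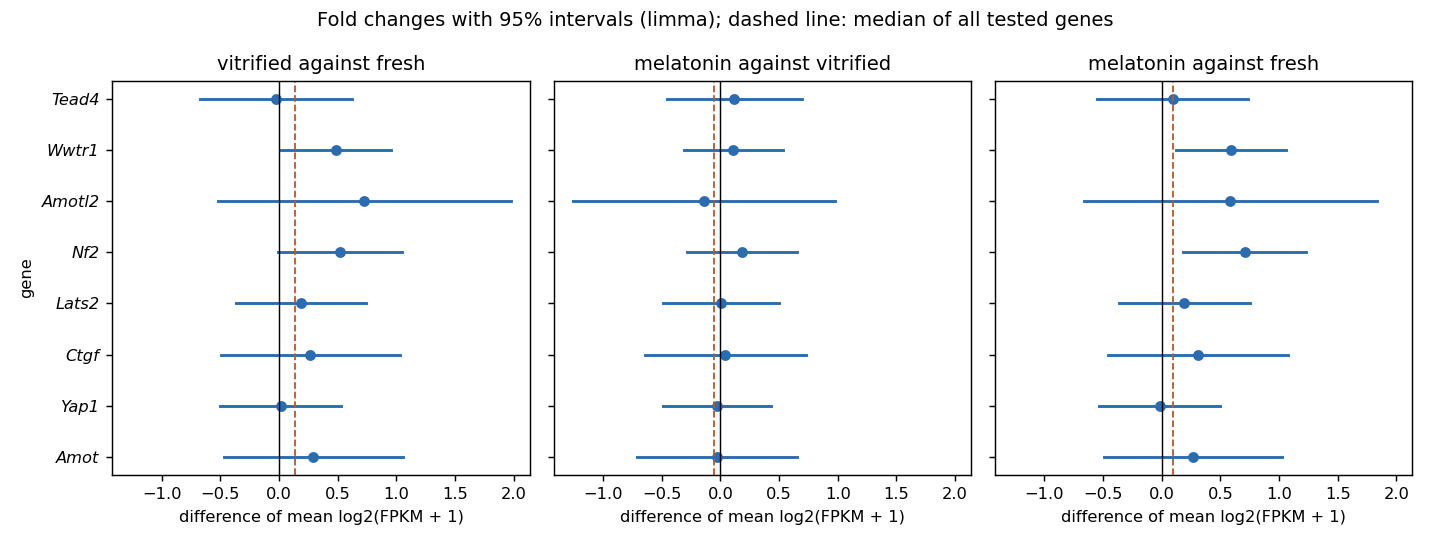
Differences of mean log2(FPKM + 1) for the 8 tested Hippo genes in 3 comparisons, with 95% intervals from limma (bars) and the median of all tested genes (dashed line). Intervals span 0 except for Wwtr1 against fresh in both vitrified groups and Nf2 in melatonin against fresh, and in the middle panel every point lies between -0.14 and 0.19.

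Yap1 and Wwtr1 encode YAP and TAZ, the pair of coactivators that LATS kinases hold back. Yap1 (chromosome 9, 7931999 to 8004596, mm10, 10 transcripts in GENCODE M21) was at 1.18 and 2.25 FPKM in fresh replicates 1 and 2. It was at 1.69, 1.65 and 1.74 in vitrified and at 1.72, 1.69 and 1.50 in melatonin libraries. The lowest and the highest Yap1 value were thus both in the fresh group, and the 6 vitrified libraries lay between them. The difference from fresh was 0.01 ± 0.23 (SE, log2 scale) for vitrified and -0.02 ± 0.23 for melatonin libraries (limma adjusted p = 0.983 and 0.979). Between melatonin and vitrified libraries it was -0.03, with a 95% interval from -0.49 to 0.43. The sign against fresh changed with the library left out: vitrified against fresh gave -0.27 without fresh replicate 1 and 0.30 without fresh replicate 2.

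Wwtr1 (chromosome 3, 57455649 to 57575910) was at 6.84 and 9.33 FPKM in the fresh libraries. Vitrified libraries had 13.4, 9.79 and 11.8 FPKM, and melatonin libraries 13.4, 13.5 and 10.9. Both fresh values lay below all 6 others, although vitrified replicate 2 was close to fresh replicate 2. Means were 8.08 ± 1.76 (SD, n = 2), 11.7 ± 1.83 (SD, n = 3) and 12.6 ± 1.48 FPKM (SD, n = 3). The log2 difference was 0.48 ± 0.21 for vitrified and 0.59 ± 0.21 for melatonin against fresh (limma adjusted p = 0.238 and 0.198), so neither passed. Without fresh replicate 1 it was 0.28 and 0.39, and with quantile normalization 0.31 and 0.46. Between melatonin and vitrified blastocysts it was 0.11 ± 0.19 (adjusted p = 0.821).

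By FPKM, Yap1 made up 11.1% to 19.5% of the summed level of Yap1 and Wwtr1. Its share was 14.8% and 19.5% in fresh libraries, 11.1%, 14.4% and 12.9% in vitrified and 11.4%, 11.1% and 12.1% in melatonin libraries. Both fresh values lay above the other 6. The difference in means was -4.30 percentage points for vitrified and -5.59 for melatonin against fresh. Each had p = 0.1 in an exact permutation test, two-sided, which is the smallest p this design allows, and 0.6 after adjustment over the 12 share tests.

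The 250 bases before the start site of the 2 coactivator genes are shown because both hold the core motif of TEAD factors, GGAATG, and with them those of Cyr61, a textbook target of YAP. They are from RefSeq on GRCm38.p6, printed 5′ to 3′ on the strand of the gene, with the motif or its reverse complement CATTCC in capitals, and none overlaps an annotated exon of its own gene. Yap1 lies on the minus strand (chr9:8004597-8004846), as do Wwtr1 (chr3:57575911-57576160) and Cyr61 (chr3:145649986-145650235).
Yap1: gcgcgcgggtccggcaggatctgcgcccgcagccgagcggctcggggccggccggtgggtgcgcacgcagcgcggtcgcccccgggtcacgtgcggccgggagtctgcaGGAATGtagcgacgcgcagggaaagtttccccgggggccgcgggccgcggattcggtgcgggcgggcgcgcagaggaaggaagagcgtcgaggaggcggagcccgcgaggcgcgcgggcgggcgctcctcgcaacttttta
Wwtr1: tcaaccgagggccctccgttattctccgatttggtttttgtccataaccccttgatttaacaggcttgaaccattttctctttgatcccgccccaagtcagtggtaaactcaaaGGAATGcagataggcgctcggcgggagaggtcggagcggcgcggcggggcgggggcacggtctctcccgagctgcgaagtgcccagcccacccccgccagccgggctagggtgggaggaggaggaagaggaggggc
Cyr61: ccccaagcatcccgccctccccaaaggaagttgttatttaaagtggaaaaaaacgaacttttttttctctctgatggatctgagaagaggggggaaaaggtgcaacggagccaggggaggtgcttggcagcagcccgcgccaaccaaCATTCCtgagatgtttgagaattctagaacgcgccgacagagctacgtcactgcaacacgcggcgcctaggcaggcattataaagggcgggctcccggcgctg
The match began 141 bases before the start of Yap1, 136 before that of Wwtr1 and 103 before that of Cyr61. The Yap1 window was 76.4% G and C, against 61.6% for Wwtr1, 54.8% for Cyr61 and a median of 52.4% over all windows. Of 32851 RefSeq windows of this length, 12.6% held the motif on either strand. Of the 10 genes, 7 had 10 windows in all, and 4 windows held it, of which 2 are overlapping windows of Wwtr1 around the same match and 1 is that of Amotl2. No window was matched for Tead1, Tead4 and Ctgf, so that they were not searched for the motif. A match of these letters is a description and not a bound site.

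TEAD factors bring YAP and TAZ to DNA, and Tead4 is the family member known for trophectoderm formation. Tead4 (chromosome 6, 128224288 to 128300823) was at 17.6 and 28.3 FPKM in fresh, 30.4, 17.9 and 19.2 in vitrified, and 28.1, 18.6 and 25.9 in melatonin libraries. High and low libraries occurred in every group, and the groups overlapped. The log2 difference was -0.03 ± 0.29 for vitrified and 0.09 ± 0.29 for melatonin against fresh, and 0.12 ± 0.26 between the 2 vitrified groups (limma adjusted p from 0.861 to 0.974). With the presence of Y-linked transcripts as a covariate, vitrified replicate 1 alone in effect stood for its group. The difference was then 0.43 for vitrified against fresh and -0.34 between the vitrified groups. Tead1 (chromosome 7, 112679318 to 112906807) was at 0.463 and 0.733 FPKM in fresh, 0.794, 0.669 and 0.954 in vitrified, and 1.07, 0.174 and 0.737 in melatonin libraries. Melatonin replicates 1 and 2 were thus the highest and lowest of all 8, with the lowest at about 10.2 fragments for the longest annotated transcript.

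Tead4 took 79.4% to 90.8% of the summed FPKM of the 4 TEAD genes. Tead2 was next, with 1.68 to 4.00 FPKM, and Tead3 was at most 0.442 FPKM and listed at 0 in fresh replicate 2 and melatonin replicate 2. The mean share of Tead4 was 85.6% ± 4.46 (SD, n = 2) in fresh, 86.0% ± 5.95 (SD, n = 3) in vitrified and 86.2% ± 0.748 (SD, n = 3) in melatonin libraries. Exact permutation p for Tead4 was from 0.8 to 1 in the 3 comparisons. Vgll1, a TEAD cofactor of trophectoderm encoded on the X chromosome, was at 8.90 and 11.3, at 10.2, 5.80 and 8.69, and at 11.5, 10.4 and 12.0 FPKM in the same order of groups. Its log2 difference of 0.44 ± 0.21 between melatonin and vitrified blastocysts did not pass (adjusted p = 0.366), and its lowest values were in the libraries without Y-linked transcripts, whose part was not tested.

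**Figure D3:**
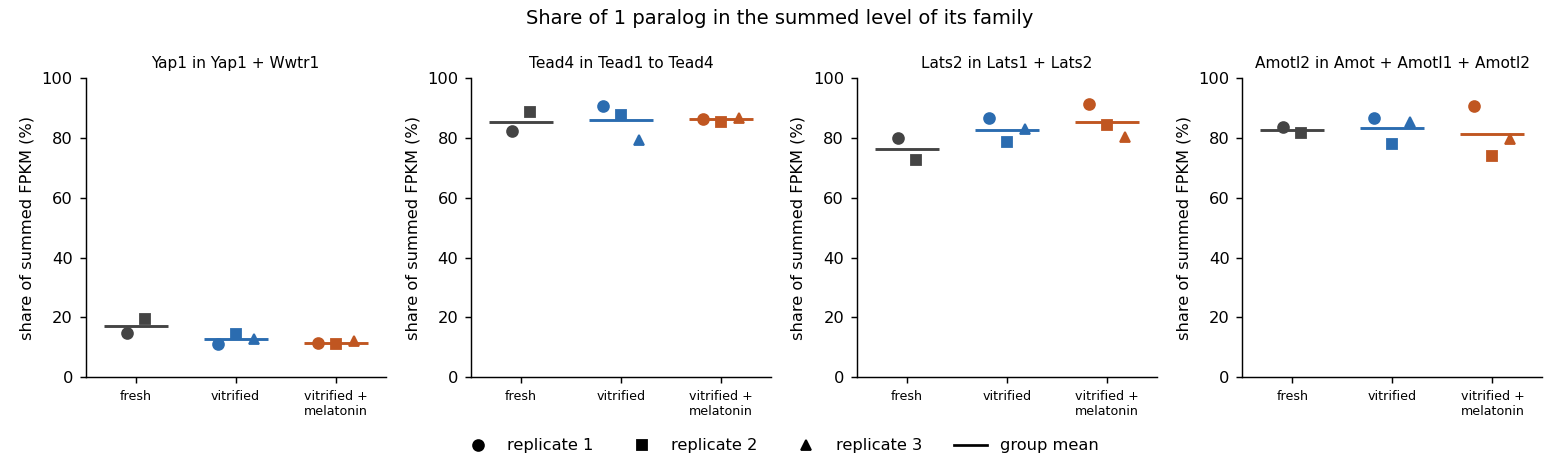
Share of Yap1, Tead4, Lats2 and Amotl2 in the summed FPKM of their families, in percent, with 1 point per library and a line at each group mean. The share of Yap1 is between 11.1% and 19.5%, and that of each other gene is at least 72.7% in every library.

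LATS kinases phosphorylate YAP and TAZ, and Lats2 is itself a YAP target. Lats2 (chromosome 14, 57689662 to 57758388) was at 1.48 and 2.39 FPKM in fresh, 2.82, 2.26 and 1.90 in vitrified, and 2.92, 2.26 and 1.86 in melatonin libraries. The vitrified and melatonin groups covered nearly the same range. The log2 difference between them was 0.01, with a 95% interval from -0.49 to 0.50, and against fresh it was 0.19 ± 0.25 for either group (limma adjusted p = 0.709 for both). Lats1 (chromosome 10, 7681214 to 7716460) was at 0.374 and 0.895 FPKM in fresh, 0.435, 0.610 and 0.386 in vitrified, and 0.269, 0.424 and 0.449 in melatonin libraries. These values stand for about 13.8 to 37.6 fragments of the longest transcript. Lats2 made up 72.7% to 91.6% of the summed level of both kinases, with group means of 76.3%, 82.8% and 85.4% in fresh, vitrified and melatonin libraries (exact permutation p from 0.2 to 0.6).

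NF2, also called merlin, brings LATS to the membrane, and Nf2 had the smallest p of the 8 genes over the 3 groups (moderated F test, adjusted p = 0.205). Nf2 (chromosome 11, 4765845 to 4849536) was at 1.26 and 1.76 FPKM in fresh, 2.98, 2.27 and 2.54 in vitrified, and 3.85, 2.37 and 3.14 in melatonin libraries. Both fresh libraries lay below the other 6. The log2 difference was 0.52 ± 0.23 for vitrified and 0.71 ± 0.23 for melatonin against fresh (limma adjusted p = 0.251 and 0.182), and 0.19 ± 0.21 between the vitrified groups (adjusted p = 0.707). Without fresh replicate 1 it was 0.37 and 0.56. Wwtr1 and Nf2 were thus the 2 of 8 genes without overlap and higher than fresh in each comparison, beside 26.4% of all tested genes for vitrified and 20.8% for melatonin libraries. The summed epiblast markers given above were separate in the same direction, and their part in the values of Wwtr1 and Nf2 was not tested. None of the 8 lay wholly below fresh, where 10.6% and 13.5% of all genes did. Between melatonin and vitrified libraries 0 of 8 were separate in either direction, beside 9.3% of all genes higher and 15.4% lower.

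Angiomotins hold YAP at junctions and help NF2 to activate LATS. Amot (chromosome X, 145446425 to 145505181) was at 0.111 FPKM in fresh replicate 1, about 7.71 fragments, and at 1.49 in fresh replicate 2, which was the highest of all 8. Vitrified libraries had 0.775, 1.41 and 0.978 FPKM, and melatonin libraries 0.930, 1.35 and 0.771. The fresh group thus spanned the others. Within the vitrified group Amot was highest in replicates 2 and 3, the libraries without Y-linked transcripts. With the presence of those transcripts as a covariate, the difference between melatonin and vitrified blastocysts was 0.17 in place of -0.03. That fit in effect compares the melatonin libraries with vitrified replicate 1 alone. The log2 difference from fresh was 0.29 ± 0.34 for vitrified and 0.27 ± 0.34 for melatonin libraries (limma adjusted p = 0.667 and 0.708), and -0.29 and -0.32 without fresh replicate 1.

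Amotl2, an angiomotin that is also a YAP target (chromosome 9, 102716672 to 102733418), was also lowest in fresh replicate 1. It was at 0.991 and 7.22 FPKM in fresh, 6.05, 5.21 and 5.85 in vitrified, and 9.68, 4.17 and 3.04 in melatonin libraries. The 3 vitrified libraries lay close together and inside the range of both other groups. The log2 difference was 0.73 ± 0.56 for vitrified and 0.58 ± 0.56 for melatonin against fresh (adjusted p = 0.495 and 0.605). It was -0.30 and -0.44 without fresh replicate 1, and 1.75 and 1.61 without fresh replicate 2 (adjusted p = 0.0698 and 0.0773). Amotl2 took 73.9% to 90.8% of the summed FPKM of Amot, Amotl1 and Amotl2, and Amotl1 was at most 0.145 FPKM.

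Ctgf, a secreted protein and textbook target of YAP and TEAD (chromosome 10, 24595442 to 24598683), was at 1.35 and 1.55 FPKM in fresh libraries. It was at 2.10, 1.23 and 2.72 in vitrified and at 3.00, 2.58 and 0.953 in melatonin libraries. The lowest vitrified and the lowest melatonin library lay below both fresh ones, and the groups overlapped. The log2 difference was 0.27 ± 0.34 for vitrified and 0.31 ± 0.34 for melatonin against fresh, and 0.04 ± 0.31 between the vitrified groups (limma adjusted p = 0.701, 0.660 and 0.962). Over the alternatives it ran from 0.0086 (quantile normalization) to 0.68 (title number as replicate block, on fresh replicate 1 alone) for vitrified against fresh. For melatonin against fresh it ran from 0.11 without melatonin replicate 1 to 0.63 without melatonin replicate 3, and Ctgf passed in none. Gm15270 overlaps Ctgf on the other strand and reached 0.790 FPKM. Reads of the 2 genes cannot be told apart if strand was not used, which is not given in the sources used here.

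Other targets were more abundant or more variable. Cyr61, a secreted relative of Ctgf (chromosome 3, 145646976 to 145649981), was at 36.6 and 62.2 FPKM in fresh, 52.6, 83.2 and 60.6 in vitrified, and 47.2, 28.1 and 25.9 in melatonin libraries. All melatonin values lay below all vitrified ones, as for 15.4% of all tested genes, and 1 fresh library lay in the range of each. The 2 highest vitrified values of Cyr61 were in the libraries without Y-linked transcripts, whose part was not tested. The log2 difference of -0.96 ± 0.28 between melatonin and vitrified blastocysts did not pass (limma adjusted p = 0.198). Ankrd1, a nuclear ankyrin repeat protein, was at 24.8 and 16.7 FPKM in vitrified replicates 2 and 3 but at 0.242 in vitrified replicate 1. It was at 1.81 and 4.09 FPKM in fresh libraries, was listed at 0 in melatonin replicate 1 and was at 0.386 and 2.01 in replicates 2 and 3. The 2 high libraries for Ankrd1 were those without Y-linked transcripts. The log2 difference of -2.36 ± 0.97 between melatonin and vitrified blastocysts did not pass (limma adjusted p = 0.304). Without vitrified replicate 1 it was -3.73 ± 0.46 and passed (limma adjusted p = 0.0337). With the presence of Y-linked transcripts as a covariate it was 0.37, which in effect sets the melatonin libraries against vitrified replicate 1 alone.

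**Figure D4:**
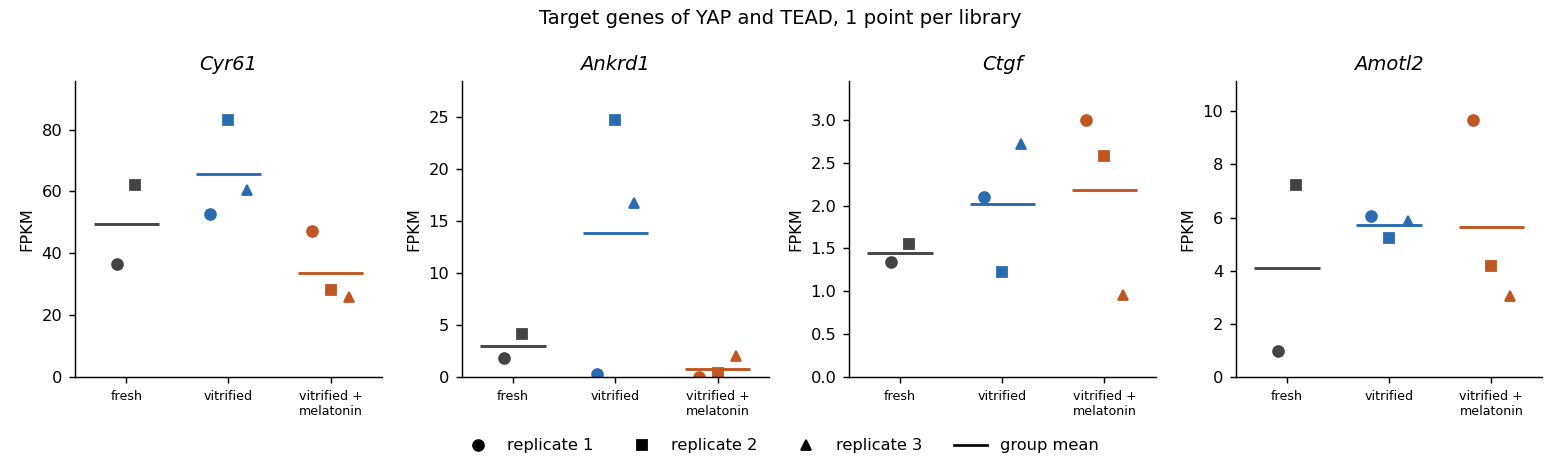
FPKM of 4 YAP and TEAD target genes with 1 point per library and a line at each group mean (2 fresh, 3 vitrified, 3 melatonin libraries); each axis starts at 0. Cyr61 is lower in the 3 melatonin than in the 3 vitrified libraries, and Ankrd1 is high in vitrified replicates 2 and 3 alone.

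The 7 lists of pathway genes placed these values in context, with 120 genes in the table and 91 tested. Of the 91, 1 gene passed the test, higher in vitrified than in fresh blastocysts, and 0 passed in either melatonin comparison. Of all tested genes, 0.865% passed for vitrified against fresh, 0.139% for melatonin against vitrified and 0% for melatonin against fresh. At an unadjusted p below 0.05 there were 13 higher and 4 lower for vitrified against fresh, 4 higher and 7 lower for melatonin against vitrified, and 13 higher and 5 lower for melatonin against fresh. Together these are 18.7%, 12.1% and 19.8% of the lists, beside 20.2%, 14.8% and 18.5% of all tested genes. Of all tested genes, 15.6% were higher and 4.56% lower for vitrified against fresh, 4.59% and 10.2% for melatonin against vitrified, and 11.6% and 6.82% for melatonin against fresh. The median log2 difference of the lists was 0.19, 0.07 and 0.25 in the 3 comparisons, beside 0.14, -0.05 and 0.09 for all tested genes.

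The gene that passed was Ezr, encoding ezrin, which links actin to the apical membrane of outer cells. Ezr was at 28.4 and 30.6 FPKM in fresh, 57.9, 49.9 and 63.8 in vitrified, and 43.0, 42.4 and 46.6 in melatonin libraries. All vitrified values of Ezr lay above all fresh ones, with a log2 difference of 0.93 ± 0.16 (limma adjusted p = 0.0407). The summed epiblast markers were separate in the same direction, and their part was not tested. The call was kept in 4 of 20 alternatives, over which the adjusted p ran from 0.0354 to 0.174, and leaving out any 1 library other than fresh replicate 2 gave an adjusted p from 0.0520 to 0.142. Among the 4 is the looser threshold of an adjusted p below 0.1, which leaves the fit as it was and so had to keep the call. With melatonin the difference of Ezr from fresh was 0.56 ± 0.16 (limma adjusted p = 0.151). Near the threshold, and named after their values were seen, were the trophectoderm factor Gata3 (0.93 ± 0.18, adjusted p = 0.0502), the polarity scaffold Pard3 (1.17 ± 0.24, adjusted p = 0.0547) and the trophectoderm factor Elf5 (-1.09 ± 0.23, adjusted p = 0.0578).

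In the 3 comparisons, 0.865%, 0.139% and 0% of all tested genes passed, with median differences of 0.14, -0.05 and 0.09. At these shares, counts of 0 in short lists say little about a role. By role, 0 of 12 tested core kinases and adaptors passed in any comparison, and their median differences were 0.19, 0.05 and 0.18. Of 20 junction and scaffold regulators 0 passed (medians 0.36, 0.09 and 0.38). Among 7 coactivators, TEAD factors and cofactors 0 passed (-0.03, 0.12 and 0.09), and among 14 genes of the STRIPAK phosphatase complex, which counters the MST kinases, 0 passed (0.13, 0.16 and 0.05). Of 13 tested general YAP targets 0 passed, with medians of 0.42, -0.17 and 0.19, and of 11 trophectoderm genes downstream of YAP and TEAD4 0 passed (0.07, 0.21 and 0.27). Mean and median differed in sign for the general targets in melatonin against fresh (mean -0.03) and for the trophectoderm genes in vitrified against fresh (mean -0.01), and for all 7 lists together in melatonin against vitrified (mean -0.01). Among the latter, Cdx2 was at 22.2 and 18.6 FPKM in fresh, 20.2, 20.8 and 18.8 in vitrified, and 27.0, 24.2 and 21.9 in melatonin libraries. Its melatonin values lay above its vitrified ones, and the difference of 0.27 ± 0.15 did not pass (limma adjusted p = 0.417).

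Genes with the most similar pattern over the 8 libraries were sought for Yap1 and for Nf2 among all tested genes. For Yap1 they were Btaf1 (Pearson r = 0.957), Ubqln4 (0.948) and the primitive endoderm factor Gata4 (0.947). Each had its lowest value in fresh replicate 1 and its highest in fresh replicate 2, as Yap1 had. For Nf2 they were Tor4a (0.976), Narfl (0.968) and 4930402H24Rik (0.965), all highest in melatonin replicate 1 and lowest in fresh replicate 1, as Nf2 was. These are the highest of the correlations with all other tested genes, are a description over 8 libraries, and come from the same libraries and depths.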

How the data were processed

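RNA of mouse blastocysts was sequenced in 8 libraries, 2 fresh, 3 vitrified and 3 vitrified with melatonin, and grouped and numbered by the sample descriptions. The authors deposited 1 table of FPKM per gene and library on mm10, per the submitters' processing notes; the sources used here name no aligner, counting tool, annotation or strand setting. The series text names Smart-seq2, while the labels' protocols describe poly(A) selection and a stranded library. All value columns were used. Positions come from GENCODE M21, matched for 19577 genes.

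Genes at 1 FPKM or more in at least 2 libraries (10755) entered 1 model of all 8 libraries on log2(FPKM + 1), fitted with limma 3.58.1 (R 4.3.3) and a variance trend. Differences on this scale understate changes of low genes. The threshold was 0.05 for the two-sided p after Benjamini-Hochberg adjustment. Paralog shares were compared by exact permutation tests, two-sided. Fragments per library were estimated from the step of FPKM times length in 4826 genes with 1 transcript, where 93.9% to 96.0% of low values lay within 0.1 of a whole number. Genes with several transcripts gave no whole numbers, so their fragments are approximate. The model was tested on simulated data.

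Members and lists were chosen with earlier results of these data known. The separate result of 1 of the 7 lists is not reported here. The text names the 10 genes, their paralogs, a few set targets, list genes past the test (at most 2 per direction) and the 3 genes most like Yap1 and like the gene with the smallest F test p. Alternatives were other scalings, filters, pseudocounts, fits, blocks, weights, a covariate for Y-linked transcripts, an adjusted p below 0.1, and each library left out. The covariate was the presence of summed Y-linked transcripts above 1 FPKM, so that vitrified differences with it rest on vitrified replicate 1. The title block fits libraries with an unshared title number exactly, so that differences from fresh with it rest on fresh replicate 1. Figures used matplotlib 3.10.9, and tables pandas 2.3.3 and numpy 2.4.6 under Python 3.11.15.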

Additional observations from a re-analysis of the deposited data

How the results depend on the processing

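No Hippo gene passed the test under any of 20 alternatives; the lowest adjusted p was 0.0698. Of 465 log2 differences 415 kept their sign and 50 did not. Many of them could not differ from the main value. Changing only the variance trend, the filter, the threshold or the groups fitted leaves a log2 difference as it was. So does leaving out a library of the group not compared. Vitrified against fresh reversed with quantile normalization for Lats2 (-0.073) and Yap1 (-0.23), with median ratio scaling for Yap1 (-0.086), and for Tead4 with the title number as replicate block (0.49) and with a Y-linked covariate (0.43). The title block in effect leaves replicate 1 as the only fresh library, and the covariate leaves replicate 1 as the only vitrified one. Melatonin against vitrified reversed with quantile normalization for Yap1 (0.086) and Amot (0.12), with median ratio scaling for Yap1 (0.0054) and Amot (0.0030), and with library weights for Ctgf (-0.21). With the title block it was -0.13 for Tead4, -0.13 for Lats2, 0.12 for Amot, -0.047 for Wwtr1, -0.36 for Ctgf and -0.0054 for Nf2, and with the Y-linked covariate -0.34 for Tead4, -0.20 for Lats2, 0.17 for Amot, -0.090 for Wwtr1 and -0.029 for Ctgf. Melatonin against fresh reversed for Tead4 with median ratio scaling (-0.016) and for Yap1 with the title block (0.27).

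Ranges over the fits with 1 library left out are listed where they crossed 0. Against fresh, Wwtr1, Nf2 and Ctgf kept their sign under every alternative, without passing. Leaving out 1 library at a time, vitrified against fresh ran from -0.29 to 0.88 for Amot and -0.30 to 1.75 for Amotl2. It ran from -0.035 to 0.41 for Lats2, -0.35 to 0.30 for Tead4 and -0.27 to 0.30 for Yap1. Melatonin against vitrified ran from -0.14 to 0.10 for Amot, -0.55 to 0.15 for Amotl2, -0.16 to 0.36 for Ctgf, -0.11 to 0.11 for Lats2, -0.020 to 0.35 for Tead4, -0.0023 to 0.21 for Wwtr1 and -0.052 to 0.0089 for Yap1. Melatonin against fresh ran from -0.32 to 0.85 for Amot, -0.44 to 1.61 for Amotl2, -0.029 to 0.42 for Lats2, -0.24 to 0.42 for Tead4 and -0.30 to 0.27 for Yap1.

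The 1 list gene called in vitrified against fresh was 0 without the variance trend, with quantile or median ratio scaling, with no filter, with only the 2 groups compared, with the biosample number as replicate block, with library weights and with the Y-linked covariate. It was 2 at a mean of at least 5 FPKM, 5 at an adjusted p below 0.1, and 0 to 5 leaving out a library (5 without fresh replicate 2). Melatonin against vitrified had 2 with library weights and 0 to 1 leaving out a library, and melatonin against fresh 1 with the title block and 0 to 5 leaving out a library. These are counts of genes and do not track Ezr, which was not called with the title block. The median of the 8 genes against fresh was 0.0045 (quantile) and 0.69 (title block) for vitrified, and -0.15 to 0.54 leaving out a library. For melatonin it was 0.57 with the title block and -0.13 to 0.61 leaving out a library; at a mean of at least 5 FPKM only Tead4, Wwtr1 and Amotl2 were left, with a median of 0.58, the value of Amotl2. Biosample numbers did not pair the libraries (correlations of deviations from -0.115 to 0.121). Differences from fresh with the title block rest on fresh replicate 1 alone, and vitrified differences with the Y-linked covariate on vitrified replicate 1 alone. Beyond this, the cause of these changes was not tested. The spread was pooled over the 3 groups, and the fresh mean rests on 2 libraries.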
